A study of Mus musculus with 38 samples.

Results

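The cytosolic ribosome is built from ribosomal RNA and a fixed set of ribosomal proteins, which fall into those of the large subunit (Rpl genes and the stalk genes Rplp0, Rplp1 and Rplp2) and those of the small subunit (Rps genes and Rpsa). Their mRNAs are among the most abundant of most cells, and many begin with a cytosine followed by a run of pyrimidines, the terminal oligopyrimidine (TOP) motif, through which the TOR pathway controls their translation. In neurons, synaptic activity leads to phosphorylation of the protein encoded by Rps6, and new protein synthesis is needed for the lasting storage of memory. The genes described here are the 76 rows of the count tables whose symbol is Rpl or Rps with a number and at most a final a or x, together with the 3 stalk genes and Rpsa, out of 23420 genes counted per library. Of these, 46 encode large subunit and 30 small subunit proteins. The symbols Rps3a1, Fau and Gnb2l1 (the files' name for Rack1), which also encode ribosomal components, lie outside this rule and were described separately.

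All mice were adult males of postnatal weeks 8 to 12 that carried the Arc::dVenus transgene on a C57BL/6J background, in which the promoter of the immediate early gene Arc drives a destabilized fluorescent protein. The 12 fear conditioned mice (FC) received tones that ended with a foot shock, the 4 no-shock mice (NS) went through the same session without shocks, and the 3 home-cage mice (HC) were never placed in the chamber. The contents of 10 dVenus+ and of 10 neighbouring dVenus- granule cells of the dentate gyrus were aspirated from each mouse, 24 h after the session in FC and NS, and pooled into 1 library per cell type, which gave 38 libraries. A dVenus+ cell is therefore defined by the fluorescence of an Arc promoter reporter, and each library averages 10 cells. The comparison of dVenus+ with dVenus- cells within a mouse asked how the transcriptome of cells with visible Arc reporter fluorescence differed from that of their neighbours.

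Between 1352288 and 18394761 reads per library were counted on genes, of which the ribosomal protein genes took between 17558 and 281432. Arc, which checks the labels, was higher in dVenus+ cells of all 19 mice. Its normalised level ran from 476.7 to 1539 CPM (reads on the gene relative to the scaled library total) in FC dVenus+ libraries, and from 0 to 171.9 in FC dVenus- libraries, where 3 of 12 were above 40 CPM. It lay between 147 and 862 CPM in NS and between 278 and 607 CPM in HC dVenus+ libraries, and at no more than 4.96 CPM in the dVenus- libraries of both groups. The precursor of ribosomal RNA, Rn45s, took between 6.47% and 70.0% of a library's reads on genes, with a higher share in dVenus+ cells in 9 of 12 FC, 3 of 4 NS and 3 of 3 HC mice. The labels disagree for NS and HC. In 10 of these 14 libraries the description names another sample ID than the characteristics do, and in 6 it gives the other cell type than the title. Titles, mouse numbers and sample ID characteristics were followed, so the pairs of NS and HC libraries rest on them, and the Arc levels above are those of libraries so named. Granule cell markers were present in every group (8 or 9 of 9 genes with reads). The sample IDs of FC mice fall into 3 series, of 2, 4 and 6 mice, and those of every NS or HC mouse into another, so that training history and series cannot be told apart where FC is set against NS or HC.

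Of the 76 ribosomal protein genes, between 71 and 75 had at least 1 read in a library, and 66 had 10 or more reads in every one of the 38 libraries. The 5 genes with the highest mean level over all libraries were Rpl3 (408.3 ± 230.4 CPM, SD, n = 38), Rpl4 (401.2 ± 191.7), Rpl5 (348.5 ± 204.9), Rpl41 (327.1 ± 255.0) and Rpl19 (300.7 ± 198.4). Rpl3 and Rpl4 encode proteins that reach into the core of the large subunit, Rpl5 the partner of 5S ribosomal RNA, and Rpl41 the smallest protein of the ribosome. The neighbours in this order lay far closer to each other than their spread over libraries. Divided by coding length, to compare genes of different size, Rpl41 stood first with 4194 CPM per kb of its coding sequence of 78 bases, ahead of Rps29 (766.3), Rplp1 (564.1), Rpl19 (508.8) and Rps27a (487.3), against a median of 268.7 over the 76 genes. Reads on the rest of the transcript are included in these counts, so the per-kb value of a short coding sequence is higher than one over the whole transcript.

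**Figure D1:**
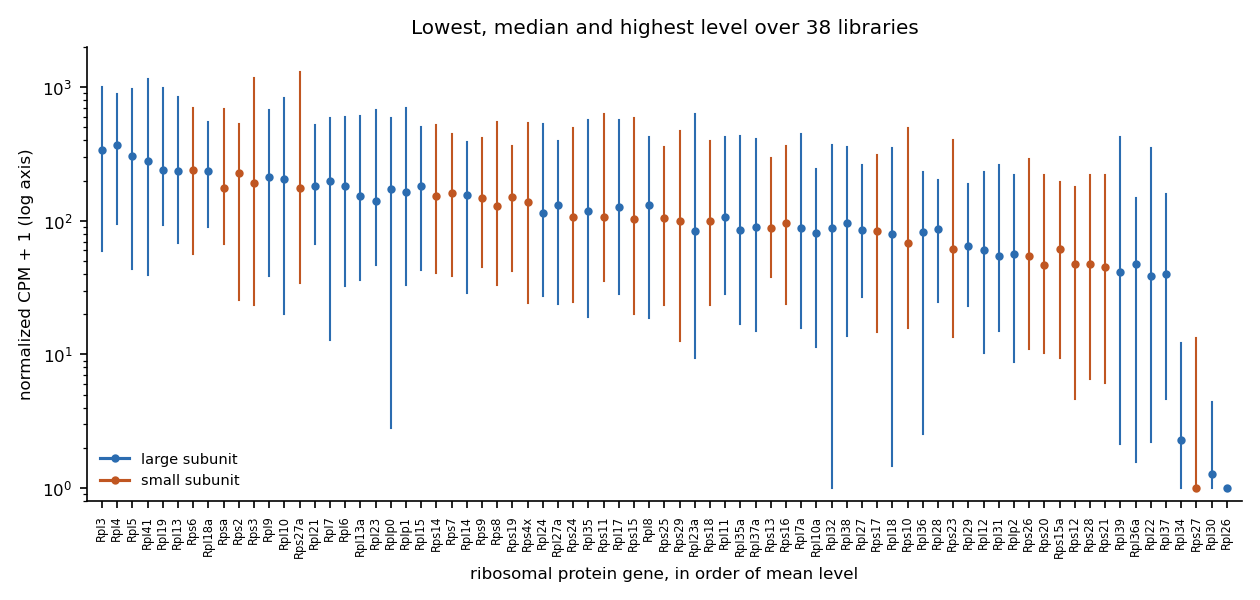
Level of 75 of the 76 ribosomal protein genes in normalised CPM plus 1, on a log axis, in order of mean level; the line runs from the lowest to the highest of 38 libraries and the point is the median. Blue marks the large and orange the small subunit. Levels fall gradually from Rpl3 (mean 408.3 CPM) to Rpl37 (49.7 CPM), and 4 genes, Rpl34, Rps27, Rpl30 and Rpl26, stand apart at 2.59 CPM or less.

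The 4 genes at the bottom of this order had few or no counted reads. Rpl26 had 0 reads in all 38 libraries. Rpl30 had reads in 21 libraries with at most 47 reads, Rps27 in 16 with at most 61 reads, and Rpl34 in 25 with at most 130 reads, and their mean levels were 0.751, 1.65 and 2.59 CPM. The next lowest member, Rpl37, had a mean of 49.7 CPM and reads in every library. Only reads with a unique position in the genome had been counted, and ribosomal protein genes have many processed pseudogenes, which are copies of their mRNAs at other places. A median of 91.5% of the 50-base stretches of a member's coding sequence, the length of the reads, occurred unchanged in a transcript of another gene of GENCODE M21, and 27 members shared every stretch. This share was 87.4% for Rpl26, 83.3% for Rpl30, 71.5% for Rpl34 and 100% for Rps27, and 100% also for the well detected Rpl5, Rpl19, Rpl41 and Rps6. The annotation holds transcripts only, so these shares are lower limits, and the level of a member is that of its uniquely placed reads. Across the 76 genes, level per coding kb and shared percentage had a Spearman rho of 0.13, given as a description of genes that share libraries.

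The promoter windows of some of the members named in the results are shown here. Any part of these sequences in the levels of the genes was not tested. Each runs 5′ to 3′ from 40 bases before to 20 bases after the transcription start in RefSeq (build GRCm38.p6), with a TOP-like tract (a C followed by at least 5 C or T, starting within 20 bases of the start) in capitals where 1 was found. The windows are chr10:23787190-23787249 (- strand) for Rps12, chr5:107900488-107900547 (+) for Rpl5, chr4:86857348-86857407 (-) for Rps6, chr9:64173347-64173406 (+) for Rpl4, chr11:114668540-114668599 (+) for Rpl38, chr7:141447611-141447670 (+) for Rplp2, chr7:99483690-99483749 (-) for Rps3 and chr5:115559427-115559486 (+) for Rplp0.
Rps12: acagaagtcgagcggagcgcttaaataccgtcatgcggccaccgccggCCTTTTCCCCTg
Rpl5: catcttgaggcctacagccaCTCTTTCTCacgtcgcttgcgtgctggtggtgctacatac
Rps6: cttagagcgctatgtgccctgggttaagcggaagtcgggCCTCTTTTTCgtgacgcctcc
Rpl4: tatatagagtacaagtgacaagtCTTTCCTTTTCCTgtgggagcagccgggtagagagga
Rpl38: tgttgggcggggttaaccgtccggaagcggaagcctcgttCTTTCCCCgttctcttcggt
Rplp2: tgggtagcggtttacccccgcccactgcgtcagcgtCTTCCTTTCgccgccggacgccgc
Rps3: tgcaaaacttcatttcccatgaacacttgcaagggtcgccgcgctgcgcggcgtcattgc
Rplp0: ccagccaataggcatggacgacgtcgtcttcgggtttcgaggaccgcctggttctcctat

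In the 6 windows from Rps12 to Rplp2 the position of the tract relative to the start differs. It begins at base 0 in Rpl38, -1 in Rps6, -4 in Rplp2, 8 in Rps12, -17 in Rpl4 and -20 in Rpl5. In Rpl4 and Rpl5 the tract ends before the annotated start, so by this annotation it lies outside the mRNA. The windows of Rps3 and Rplp0 hold no tract by this definition. RefSeq promoters were at hand for 56 of the 76 members. A TOP-like tract was found in 36 of these 56 (64.3%), against 32.5% of the 27025 genes with such a promoter. The motif CCGGAAG, searched on both strands over 250 bases before to 50 after the start, was found in 22 of 56 (39.3%) against 9.12% of all genes. TATAAA, searched on the gene's strand 20 to 40 bases before the start, was found in 0 of 56, against 2.36% of all genes. The tract and CCGGAAG were searched independently and may overlap, and a match of letters is no binding site.

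The levels of the ribosomal protein genes varied together from library to library. Over the 12 FC mice, the dVenus+ minus dVenus- differences of 2 members had a median Spearman rho of 0.48 across all pairs of the 74 members tested (10th to 90th percentile, 0.098 to 0.77), where all pairs of the 9709 genes tested had a median of 0.028. In the levels themselves the median rho between members was 0.51 in FC dVenus+ and 0.69 in FC dVenus- libraries, against 0.042 and 0.014 for all pairs. These values are a description, as all pairs share the same libraries, their depth and their scaling. The spread of the members between mice was smaller than that of all genes. The median standard deviation of log2 levels was 0.97 for members and 1.82 for all genes tested in FC dVenus+ libraries, and 0.91 and 1.60 in FC dVenus- libraries. Their level was also higher, with a median of 91.6 CPM for members and 18.3 CPM for all genes in FC dVenus+ libraries.

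The ratio of the subunits varied little. The reads on large subunit genes were 1.79 ± 0.20 times those on small subunit genes (SD, n = 38 libraries), between 1.37 and 2.21. In FC this ratio was 1.80 ± 0.20 in dVenus+ and 1.86 ± 0.19 in dVenus- libraries (SD, n = 12 each), with a difference within mice of -0.054 ± 0.28, smaller than its spread. The ratio was 1.80 ± 0.22 and 1.74 ± 0.23 in NS (n = 4), and 1.63 ± 0.21 and 1.70 ± 0.13 in HC (n = 3). The share of all reads on genes that fell on the members varied from 0.426% to 2.38% over the libraries.

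In FC mice, no ribosomal protein gene passed the test between dVenus+ and dVenus- cells. Of the 74 members tested, 0 were called by edgeR's quasi-likelihood test with the mouse as a block (Benjamini-Hochberg adjusted p under 0.05 and absolute log2 fold change over 1), beside 1.41% of the 9709 genes tested (0.577% higher and 0.834% lower in dVenus+ cells). Without adjustment, 1 of 74 members had p under 0.05 (1.35%), where 12.8% of all genes did. The dVenus+ and dVenus- libraries overlapped in all 74 members, and 0.124% of all genes had libraries that did not. The members Rpl26 and Rps27 missed the count filter in FC, and Rpl30 as well in NS and HC. DESeq2's Wald test called 1 of the 74 members, Rps12, a smaller share than its 1635 of the 9709 genes. The fitted log2 fold change of members had a median of 0.20, from -0.55 to 1.24, with 59 above and 15 below 0, whereas the median of all genes was -0.21. The median was 0.20 in both subunits, with 33 of 45 large and 26 of 29 small subunit genes above 0.

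The 95% intervals show how large a difference these data leave room for. In 73 of 74 members the interval included 0, in 21 it lay wholly within a 2-fold change in either direction, and in 69 within a 4-fold change. Over all genes tested, only 241 intervals of 9709 lay within a 2-fold change. The median standard error of the log2 fold change was 0.41 for members and 1.02 for all genes.

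**Figure D2:**
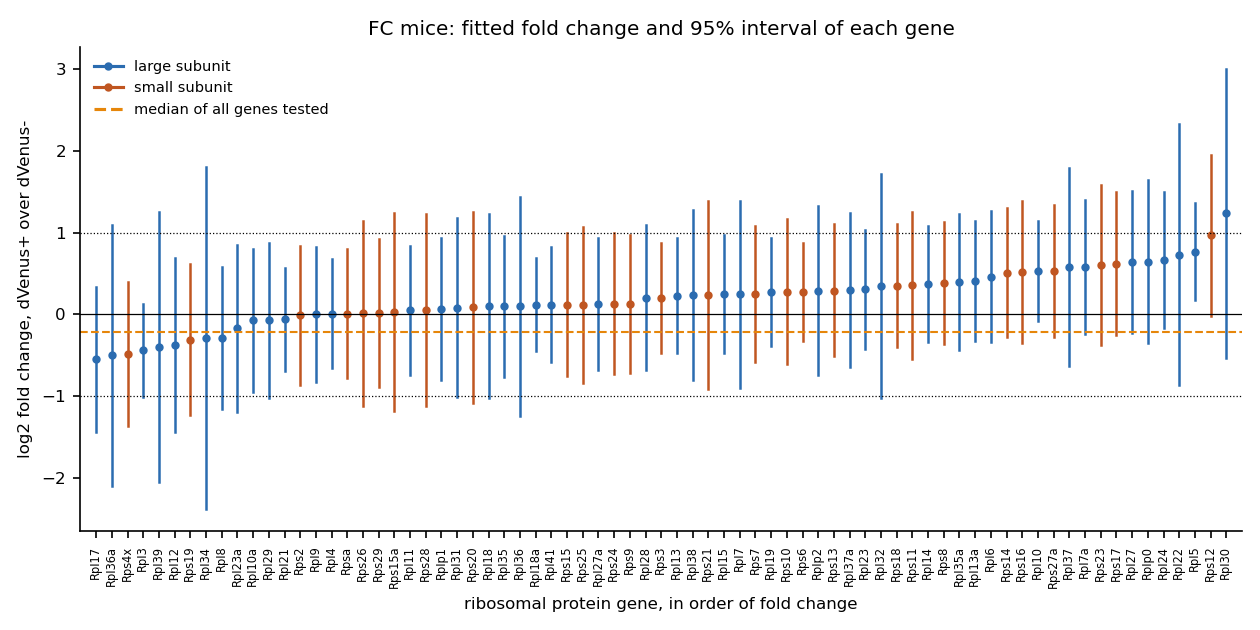
Fitted log2 fold change (point) and 95% interval (line) of 73 of the 74 ribosomal protein genes tested in FC mice, dVenus+ over dVenus-, in order of fold change, with large subunit genes in blue and small subunit genes in orange; dotted lines mark a 2-fold change and the dashed line the median of all 9709 genes tested (-0.21). The interval of Rpl5 is the only one that leaves out 0.

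The highest values in FC belonged to Rpl30, Rps12, Rpl5, Rpl22 and Rpl24. Rps12, a small subunit protein known from cell competition in flies, was the only member higher in dVenus+ cells in 12 of 12 FC mice, where 1.63% of all genes tested had 1 direction in every mouse. Its level ran from 21.3 to 177 CPM in FC dVenus+ libraries (median 55.7) and from 10.4 to 57.1 CPM in dVenus- libraries (median 37.3). The libraries overlapped, with the highest dVenus+ levels in mice 07, 05, 01 and 14 at 145 CPM or more. The log2 fold change was 0.97 (SE 0.47, adjusted p = 0.407, edgeR), and DESeq2 gave 1.01 (SE 0.37, adjusted p = 0.0379). In HC mice Rps12 was at 97.4, 160 and 38.9 CPM in dVenus+ and at 45.2, 3.63 and 20.1 CPM in dVenus- cells of mice 15, 16 and 17, higher in 3 of 3. In NS mice it was higher in 2 of 4, with 10.1, 69.7, 44.4 and 65.2 CPM in dVenus+ and 147, 133, 32.9 and 32.1 CPM in dVenus- cells of mice 18 to 21. Neither difference passed the test (log2 fold change 2.10, SE 2.45 in HC and -0.68, SE 1.63 in NS, adjusted p = 0.984 and 1, edgeR). Every 50-base stretch of its coding sequence also occurs in the transcript of Rps12l1, annotated as a processed pseudogene.

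Rpl5, which with Rpl11 binds 5S ribosomal RNA and the regulator of p53 Mdm2, ran from 168 to 789.6 CPM in FC dVenus+ libraries (median 364.8) and from 90.2 to 358 CPM in dVenus- libraries (median 226). It was higher in dVenus+ cells in 10 of 12 mice, with overlapping libraries, and its log2 fold change of 0.77 (SE 0.28) had an interval from 0.18 to 1.36 (adjusted p = 0.208, edgeR). Its partner Rpl11 had a log2 fold change of 0.05 (SE 0.38), with 7 of 12 mice higher. In NS mice Rpl5 stood at 231, 141, 458 and 971 CPM in dVenus+ and at 168, 420, 649 and 322 CPM in dVenus- cells, which is higher in 2 of 4 mice. In HC mice it stood at 259, 42.8 and 646 CPM against 183, 740 and 383 CPM. Both groups overlapped widely.

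Rpl30, at the top of the FC order with a log2 fold change of 1.24 (SE 0.85, adjusted p = 0.602, edgeR), is one of the members with hardly any reads, at no more than 3.38 CPM in any FC library. Rpl22, which has a close paralog in Rpl22l1, had 0.73 (SE 0.77, 7 of 12 mice higher) and Rpl24 had 0.67 (SE 0.40, 8 of 12 higher). Rpl22l1, which is not a member, was higher in dVenus+ cells in 1 of 4 NS and 1 of 3 HC mice. Its log2 fold change was -0.76 in NS (SE 1.27) and -1.45 in HC (SE 2.49). In FC it was higher in 11 of 12 mice, with a log2 fold change of 1.06 (SE 0.51, adjusted p = 0.389, edgeR). At the other end stood Rpl17 (-0.55, SE 0.42), Rpl36a (-0.50, SE 0.77), Rps4x (-0.49, SE 0.42), Rpl3 (-0.44, SE 0.27) and Rpl39 (-0.40, SE 0.79), of which Rps4x was higher in dVenus+ cells in 2 of 12 mice and Rpl3 in 3 of 12. Their adjusted p-values lay between 0.551 and 0.908 (edgeR).

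The other members chosen for their roles had smaller values than Rps12 and Rpl5. Rps6, the substrate of S6 kinases, ran from 166 to 446.8 CPM in FC dVenus+ libraries (median 248.8) and from 139 to 417 CPM in dVenus- libraries (median 189.5), with a log2 fold change of 0.28 (SE 0.29, 8 of 12 mice higher, interval -0.32 to 0.88). Its mRNA level says nothing of the phosphorylation of the protein. Of the stalk genes, whose proteins recruit elongation factors to the ribosome, Rplp0 had 0.64 (SE 0.48, 9 of 12 higher), Rplp2 0.29 (SE 0.49, 8 of 12) and Rplp1 0.07 (SE 0.41, 6 of 12). Rpsa, the laminin receptor precursor, had 0.01 (SE 0.38), Rpl4 0.01 (SE 0.32) and Rpl10a, the protein tagged in ribosome affinity purification, -0.07 (SE 0.42). Rps3 had 0.20 (SE 0.32), Rps25 0.12 (SE 0.46), Rpl38 0.24 (SE 0.50), Rpl41 0.12 (SE 0.34), Rpl19 0.28 (SE 0.32) and Rps27a, made as a fusion with ubiquitin, 0.53 (SE 0.39). None of these intervals left out 0.

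Single mice differed in direction. Within single FC mice the median log2 difference over the 74 members ran from -1.18 in mouse 04 to 1.32 in mouse 14, with 8 mice above and 4 below 0 (mean 0.20 ± 0.79, SD, n = 12). In mouse 06, 69 of 74 members were lower in dVenus+ cells, and in mouse 13, 68 of 74 were higher. The series of sample IDs gave different values. The fit of the 6 mice of 1 series had a median of 0.48, with 4 of 74 members below 0, where the median of all genes was -0.064. The fit of the 4 mice of another had a median of -0.47, with 60 of 74 members below 0, where the median of all genes was -0.58. In the second fit the members thus lay near all genes. The 2 mice of the third series had medians of 1.02 and 0.016. The Rn45s share differed alongside. In the 4-mouse series it was higher in dVenus+ cells in 4 of 4 mice, by 21.6 ± 16.9 percentage points, in the 6-mouse series in 4 of 6, by 7.61 ± 23.8 points. Without mice 05, 07 and 14, which had a library with over 50% Rn45s, the median over 75 members was 0.02, with 35 below 0. The median of all genes was -0.06 in that fit. With library totals in place of TMM factors the members' median was -0.21, with 57 of 74 below 0, while the median of all genes moved to -0.53. With Rn45s left out of the counts and totals before TMM, the median was 0.20, with 15 of 74 below 0, as with it kept. The part of the series in these differences was not tested.

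**Figure D3:**
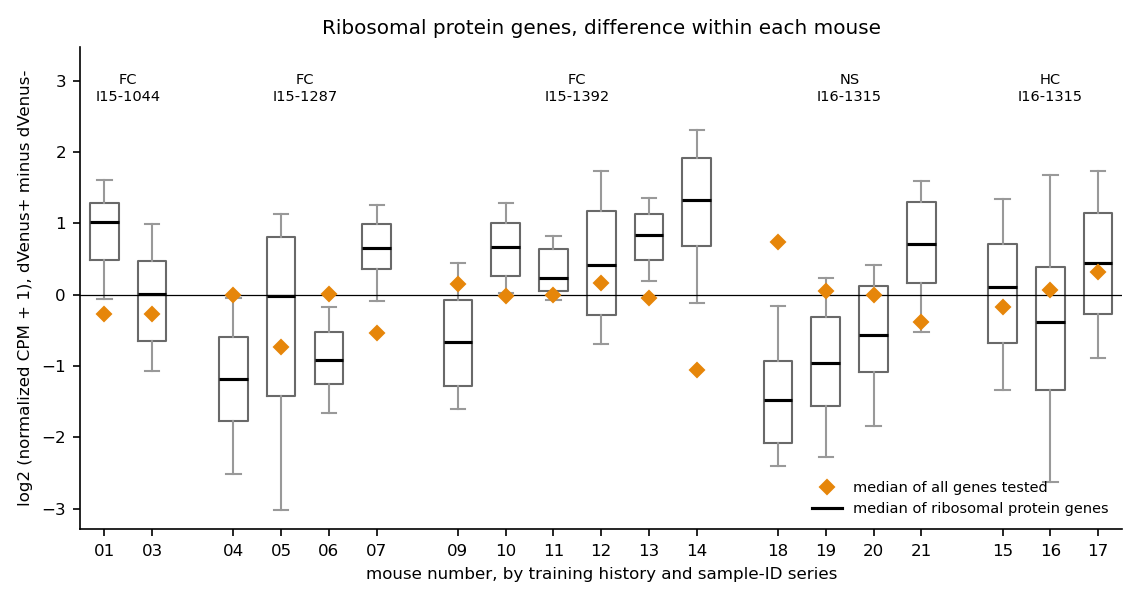
Difference in log2 (normalised CPM + 1) between the dVenus+ and the dVenus- library of each mouse, over the ribosomal protein genes tested in its group (box, quartiles; line, median; whiskers, 10th and 90th percentiles), with the median of all genes tested as an orange diamond; mice are grouped by training history and sample-ID series. Medians of members run from -1.18 to 1.32 in FC, from -1.47 to 0.71 in NS and from -0.38 to 0.44 in HC mice, and boxes lie on both sides of 0 in each group.

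Genes around the ribosome showed no calls either in FC mice. Of 76 mitochondrial ribosomal protein genes, a family of the same size with its own ribosome, 76 were tested and 0 called, with a median log2 fold change of -0.17, 44 below 0, and a median standard error of 1.06. Of other cytosolic components, Fau had a log2 fold change of 0.39 (SE 0.36), Gnb2l1 of 0.18 (SE 0.42) and Rps3a1 of 0.07 (SE 0.32). Of 12 elongation and termination factors, 0 were called and 4 were above 0. Among them, Eef1a1, which brings aminoacyl-tRNA to the ribosome, was at -0.06 (SE 0.28), its neuronal form Eef1a2 at 1.06 (SE 0.79) and Eef2, which drives translocation, at -0.59 (SE 0.45). Of 16 other TOP mRNAs tested, 0 were called, with a median of 0.014 and 8 above 0. The highest of those named in FC was Tpt1, which was higher in dVenus+ cells in 1 of 4 NS and 3 of 3 HC mice. In FC it ran from 150 to 1183 CPM in dVenus+ and from 77.5 to 380 CPM in dVenus- libraries. There it was higher in 10 of 12 mice (log2 fold change 1.18, SE 0.32, adjusted p = 0.0776, edgeR). Of 42 ribosome assembly factors tested 25 were above and 17 below 0, and of 14 TOR pathway and S6 kinase genes 6 were above and 8 below, with 0 called in both lists.

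Of the marker lists of other cells with a gene tested, none had a gene called by edgeR in FC mice. The summed level of 12 microglia markers ran from 39.8 to 2482 CPM in FC dVenus+ and from 1.39 to 1094 CPM in FC dVenus- libraries. All 12 genes were detected in both. Of those tested, 9 of 9 were above 0, with a median log2 fold change of 4.51 (from 0.90 to 7.10). Without adjustment 5 of 9 had p under 0.05 (55.6%, edgeR), against 12.8% of all genes. The lowest adjusted p was 0.0501 (edgeR), so 0 were called. Oligodendrocyte markers had a summed median of 497 CPM in dVenus+ and 546 CPM in dVenus- libraries, with 4 of 4 tested genes above 0. Astrocyte markers (191 and 393 CPM) had 3 of 4 and interneuron markers (55.4 and 139 CPM) 2 of 3 tested genes below 0. The 9 granule cell markers summed to between 223 and 1060 CPM in dVenus+ and between 666.5 and 2023 CPM in dVenus- cells. Of these markers, 7 of 9 were below 0 and Calb1 was called. The nuclear RNA Malat1 was higher in dVenus+ cells in 12 of 12 FC mice (log2 fold change 1.53, SE 0.31, adjusted p = 0.0149, edgeR), and of 5 nuclear RNAs tested 4 were above 0 and 1 below. Malat1 was also higher in dVenus+ cells in 4 of 4 NS (1.81, SE 0.35) and 3 of 3 HC mice (2.66, SE 0.57), and called in neither. All counts are relative to a library's total, so that fewer cells of a type and less mRNA per cell cannot be told apart. The part of these markers in the ribosomal protein values was not tested.

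In NS mice, the members lay lower in dVenus+ cells in most cases, but none passed the test. Of 73 members tested 0 were called by edgeR, as of all 8187 genes (0%), and DESeq2 called 0 members among 666 genes. Without adjustment 2 of 73 members, Rps3 and Rpl34, had p under 0.05 (2.74%), against 4.69% of all genes. The median log2 fold change was -0.53, with 63 of 73 below 0, whereas the median of all genes was 0.20. The intervals were wide, with 0 of 73 within a 2-fold and 10 within a 4-fold change, so that the count of 0 says little about the members. With library totals the median was -1.02, with all 73 below 0, and that of all genes -0.31. The members were not lower in every mouse. The median over members was -1.47, -0.95 and -0.56 in mice 18, 19 and 20 and 0.71 in mouse 21 (mean -0.57 ± 0.93, SD, n = 4), and the fitted median was -0.22 without mouse 18 and -1.03 without mouse 21. Microglia markers summed to between 79.4 and 1621 CPM in NS dVenus+ and between 7.76 and 604.7 CPM in NS dVenus- libraries, and granule cell markers to between 215.5 and 471.4 CPM against 920.0 to 1330 CPM, with their part in these values not tested.

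Rps3, which lies at the entry of the mRNA channel of the small subunit, had the lowest log2 fold change in NS after Rpl34. It was at 22.4, 48.2, 59.9 and 167 CPM in dVenus+ and at 1172, 323, 292 and 241 CPM in dVenus- cells of NS mice 18 to 21. All 4 dVenus+ libraries lay below all 4 dVenus- libraries. In HC mice it was at 56.0, 185 and 69.5 CPM in dVenus+ and at 174, 379 and 155 CPM in dVenus- cells of mice 15 to 17, lower in 3 of 3 mice with overlapping libraries. In FC mice it ran from 90.5 to 586.7 CPM in dVenus+ (median 215.5) and from 91.7 to 414 CPM in dVenus- cells (median 194.8). The log2 fold change was -2.73 in NS (SE 0.95, interval -4.71 to -0.75, adjusted p = 0.984, edgeR) and -1.43 in HC (SE 1.23, adjusted p = 0.984). Only 8.05% of its 50-base coding stretches occur in another transcript, against the median of 91.5%.

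Rpl34 had 0 reads in all 4 NS dVenus+ libraries and 74, 43, 86 and 18 reads in the dVenus- libraries of mice 18 to 21. Against a floor of 3 reads over the 4 dVenus+ libraries, it was at least 39.6-fold lower, a bound that covers counting error only, since the reads carry no molecular identifiers (adjusted p = 0.774, edgeR). In HC mice it had 0, 0 and 20 reads in dVenus+ and 68, 41 and 86 reads in dVenus- libraries of mice 15 to 17, and in FC mice it was higher in dVenus+ cells in 6 of 12 (log2 fold change -0.29, SE 1.00). Libraries with 0 reads of Rpl34 occurred in both cell types of FC mice, in dVenus+ of mice 01, 04, 05 and 14 and in dVenus- of mice 01, 03 and 09. Of the 73 members tested in NS, 7 had dVenus+ and dVenus- libraries that did not overlap (9.59%, against 5.97% of all genes tested): Rps3, Rpl34, Rpl8, Rpl18, Rps7, Rps14 and Rps26, all lower in dVenus+ cells. A single direction in all 4 mice was seen in 11 of 73 members (15.1%) and in 17.2% of all genes.

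In HC mice the members lay on both sides of 0 and none passed the test. Of 73 members tested 0 were called by edgeR (0.0264% of 7588 genes tested), 0 had p under 0.05 without adjustment (3.91% of all genes), and DESeq2 called 0 members among 625 genes. The median log2 fold change was -0.12, with 40 below 0, beside 0.11 for all genes, and the median standard error was 1.23. Here 0 of 73 intervals lay within a 2-fold and 1 within a 4-fold change, so that the count of 0 again says little. The 2 genes called in these mice were Rn45s and Lars2, and neither is a member. Libraries did not overlap in 6 of 73 members (8.22%), where 15.1% of all genes did not, and 21 of 73 (28.8%) had a single direction in all 3 mice, against 29.7% of all genes. Neither share was above that of all genes. Rplp0 had the lowest log2 fold change in HC after Rpl34, at 29.9, 3.72 and 392 CPM in dVenus+ and 191, 562 and 130 CPM in dVenus- cells of mice 15 to 17 (log2 fold change -2.84, SE 1.90, adjusted p = 0.984, edgeR), with mouse 17 in the other direction. Rplp1, its partner in the stalk, had a log2 fold change of 1.43 (SE 1.12) and was higher in 3 of 3 mice. With Rn45s left out the median was -0.19, with 44 of 73 below 0. With library totals it was -0.89, with 62 of 73 members below 0, and the median of all genes moved to -0.67. The Rn45s share was higher in dVenus+ cells of all 3 mice, by 31.2 ± 18.9 percentage points (SD, n = 3), and its part in this shift was not tested. Granule cell markers summed to between 203.5 and 651 CPM in HC dVenus+ and between 760.5 and 2028 CPM in HC dVenus- libraries. Microglia markers summed to between 494 and 1601 CPM against 58.6 to 504 CPM, and astrocyte markers to between 1319 and 1563 CPM against 305 to 508 CPM. The part of these markers in the HC values was not tested.

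**Figure D4:**
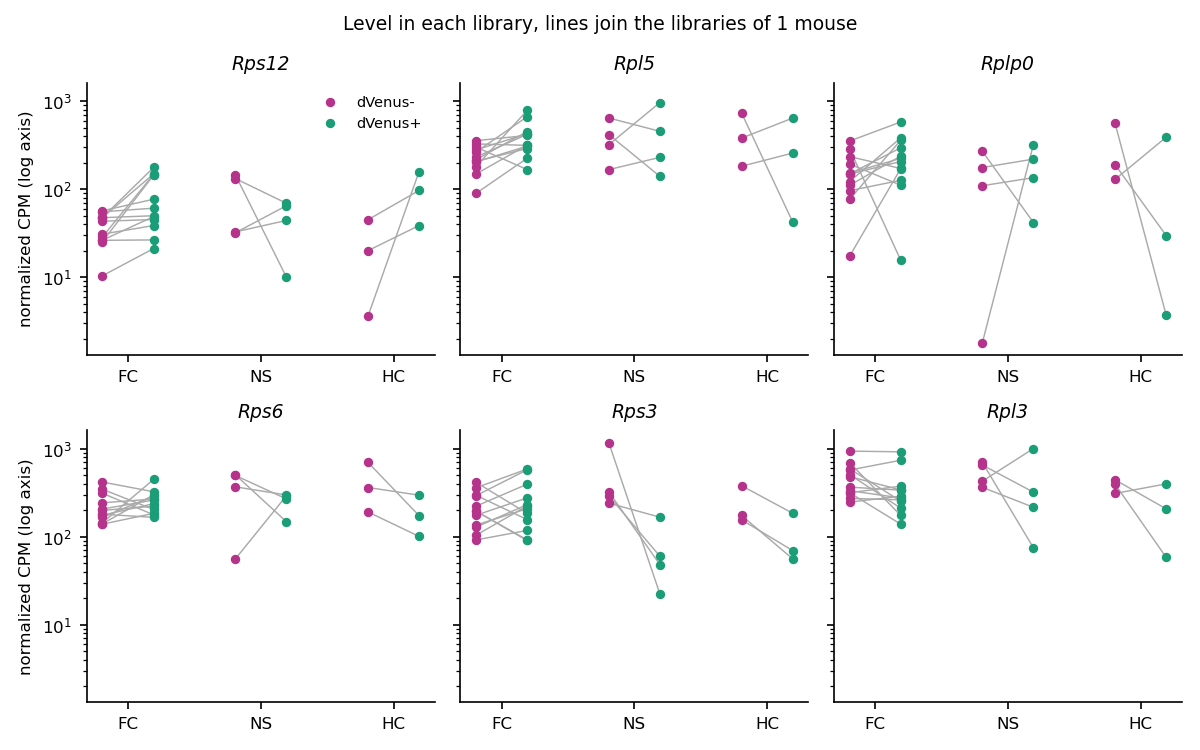
Normalised level in CPM, on a log axis, of 6 ribosomal protein genes in every library, with dVenus- in magenta and dVenus+ in green; each line joins the 2 libraries of 1 mouse, for 12 FC, 4 NS and 3 HC mice. Rps12 is higher in dVenus+ cells in 12 of 12 FC mice, and Rps3 is lower in dVenus+ cells in 4 of 4 NS and 3 of 3 HC mice, while lines of both directions occur for Rps6 and Rpl3 in FC mice. A single direction in every mouse was seen in 1.63% of all genes tested in FC, 17.2% in NS and 29.7% in HC.

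Whether the difference between dVenus+ and dVenus- cells depended on training history was tested in 1 fit of all 38 libraries. Of the 75 members tested 0 differed between FC and NS (0% of 14075 genes) and 0 between FC and HC (0%) at an adjusted p under 0.05 (edgeR). Without adjustment 3 members (Rpl24, Rpl34 and Rps3) had p under 0.05 for FC against NS, and 1 (Rpl12) for FC against HC, where 5.42% and 6.34% of all genes did. The difference in log2 fold change between FC and NS was 2.88 for Rps3 (SE 0.86) and 1.90 for Rpl24 (SE 0.82), each with an adjusted p of 0.876 (edgeR). DESeq2's Wald test called 4 of the 75 members for FC against NS, Rps3 (3.05, adjusted p = 0.000356), Rpl24, Rpl27 and Rpl10. For FC against HC it called 3 of 75, Rplp0, Rps14 and Rps16. Of all 14075 genes it called 1192 and 1583, in both cases a larger share than of the members. The median difference over the 75 members was 0.68 for FC minus NS, with 65 above 0, and 0.14 for FC minus HC, with 42 above 0, beside medians of -0.70 and -0.87 over all genes. Both differences use the same FC libraries, and training history and ID series cannot be told apart in them.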

How the data were processed

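Each library held 10 pooled cells, amplified after Smart-seq2 and sequenced in single reads of 50 bases. The authors aligned the reads to mm10 with TopHat2 2.0.13 and counted uniquely aligned reads on NCBI transcripts with htseq-count (HTSeq 0.6.0), and the deposited values are these raw counts per gene, without normalization. The rows that name no gene were left out of totals and tests. They hold between 16.4% and 59.7% of the uniquely aligned reads as reads outside genes. A deposited table of all libraries was not used.

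Libraries were grouped by the titles. The design text gives 14 FC mice, of which 12 have libraries here and the others were not analysed here. Counts were tested with edgeR 4.0.16 in R 4.3.3 (TMM, estimateDisp, glmQLFit, glmQLFTest at their defaults), dVenus+ against dVenus- with the mouse as a block, FC, NS and HC each in its own fit, after removing genes that did not reach 10 counts in 12, 4 or 3 libraries. The common biological coefficient of variation was 1.20, 1.42 and 1.42. A gene was called at a Benjamini-Hochberg adjusted p-value under 0.05 over all genes tested and an absolute log2 fold change over 1. The interaction was fitted over genes that reached 10 counts in 3 or more of the 38 libraries. Tests are two-sided. Levels are CPM scaled by TMM over all 38 libraries, and differences within mice use log2 (CPM + 1). The pairs come from 1 animal each. The deviations of the libraries of a mouse from their group means had a median correlation of 0.049 for FC, -0.015 for NS and 0.024 for HC mice.

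The scripts were tested on simulated counts with 200 changed genes. Most of the changed genes were not called in FC, and none were called in NS or HC. They were taken from all genes tested, whose median standard error in FC was 1.02, against 0.41 for members. Their recovery therefore says little about the members, for which the intervals were used instead. Of these, 21 of 74 lay within a 2-fold change in FC, and 0 of 73 in NS and in HC. A member that is not called may thus still differ. Alternatives were DESeq2 1.42.0 (its size factors and its Wald test), library totals, TMM without the members, no count filter, no block, each mouse left out and single ID series. Chosen after values were seen were fits without Rn45s, with the newer quasi-likelihood method, and without mice over 50% Rn45s. The members, gene lists and tests were chosen with earlier results of these data known. The genes named are Arc, the 5 highest and 5 lowest members in FC, the 5 highest by level and members and relatives chosen for their roles. Members named because their libraries did not overlap, because they passed an unadjusted p, for having few reads or as calls of DESeq2 were chosen after their values were seen. Differences between mice are those of separate animals, and depth enters as given with each result. No protein sequences were used here. Single values of 1 member and 1 related gene are not reported here.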

Additional observations from a re-analysis of the deposited data

Results flagged for a closer look

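1 level stood far from the others of its group. Rps3 was at 1172 CPM in the dVenus- library of NS mouse 18, against 241 to 323 CPM in the dVenus- libraries of the other 3 NS mice, a gap past Dixon's 95% critical value for 4 values. Chance flags about 1 in 20 groups, and 50 groups of 4 libraries were examined. Without mouse 18 the log2 fold change of Rps3 in NS was -1.87 (SE 1.06), in place of -2.73.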

How the results depend on the processing

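With edgeR, 0 members were called in FC under each alternative, including every fit that left out 1 mouse. Only 1.41% of all genes tested were called in the main FC fit, so a count of 0 among 74 members says little about stability. The fits of only 4 or 6 mice called 3 and 0 of all genes, so their count of 0 members says nothing about it. The count of 0 in NS, in HC and for FC minus NS or HC shows no stability, since the edgeR fits of all genes called 0 in NS, 2 in HC and 0 for both differences. With DESeq2's Wald test the count was 1 in FC, 4 for FC minus NS, 3 for FC minus HC, and 0 in NS and HC. The same test called 1635 of 9709 genes in FC, 1192 of 14075 for FC minus NS and 1583 of 14075 for FC minus HC. The median log2 fold change of the members ran from 0.093 to 0.32 in FC, from -1.03 to -0.22 in NS and from -0.48 to 0.043 in HC mice with each mouse left out, and changed sign without HC mouse 16. In FC it was -0.21 with library totals, -0.47 with only the 4-mouse series, 0.48 with only the 6-mouse series and 0.15 without a count filter. The median of all genes in these fits was -0.53, -0.58, -0.064 and -0.17, in the same order. In HC the members' median was -0.89 with library totals. The fit with no replicate block gave medians of 0.26 for FC, -0.47 for NS and -0.19 for HC mice, and changed no call of a member. Calls over all genes in FC came to 137, to 1635 with DESeq2, 422 with the newer quasi-likelihood method, 80 with library totals, 69 without the mice over 50% Rn45s, 3 and 0 with only 4 or 6 mice, and between 56 and 118 when 1 mouse was left out. The NS calls came to 0, to 666 with DESeq2, 13 without a count filter, 4 with the newer method, 2 with Rn45s left out and 1 with DESeq2 size factors. In HC they came to 2, to 625 with DESeq2, 5 without a filter and 1 with Rn45s left out. They came to 0 in HC with DESeq2 size factors, with library totals, with the newer method and without the block. Arc missed the threshold in NS (adjusted p = 0.0782, edgeR) and HC (adjusted p = 0.113, edgeR) and passed it with DESeq2 and without a count filter. In NS it passed in 5 of 8 alternatives and in 3 of 4 fits that left out 1 mouse. In HC it passed in 2 of 8 and 1 of 3. Named members changed sign in 65 of 548 combinations of gene and alternative in FC, 25 of 276 in NS and 22 of 253 in HC. Apart from what their construction changes, such as fewer mice or more genes, the cause of these shifts was not tested. Of the 76 members, 66 had at least 10 reads in every library, and the other 10 had fewer in at least 1 library. The reads carry no molecular identifiers, so these counts do not tell how many molecules of a member were sampled.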
